A study of Mus musculus with 6 samples.

Results

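Neutrophils make their primary (azurophilic) granules at the promyelocyte stage. This report describes 10 primary granule and granulocyte progenitor genes in RNA from cells purified as bone endothelial cells (BECs) of 12-week-old mice. The genes were taken by name from a gene count table of 37991 identifiers. They were Mpo, Elane, Prtn3 and Ctsg, which encode the main primary granule proteins, Ms4a3, Fcnb and Serpinb1a, which accompany them in the same stages, and Cebpa, Cebpe and Gfi1, transcription factors of granulocyte development. All 10 were among the 19480 genes that passed the filter on low counts. RNA came from BECs of c57/Bl6 mice, as the labels spell the strain (C57BL/6J in the study's methods), purified by their endomucin. The labels give the tibia and a sort into lysis buffer, whereas the methods describe tibiae and femurs and magnetic beads coated with an endomucin antibody. The groups were 3 female and 3 male libraries of mice of 12 weeks, for which the labels give no treatment and no altered allele. The study kept the samples of best RNA quality, and neither the labels nor its methods say whether a library holds 1 animal, so the p-values below measure only the spread between these samples.

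Granule proteins are made in waves as a granulocyte matures. Myeloperoxidase and the serine proteases are transcribed in granulocyte-monocyte progenitors and promyelocytes and then switched off, lactoferrin and other secondary granule proteins follow in myelocytes and metamyelocytes, and receptors of the circulating cell come last. C/EBPα and PU.1 act early in this sequence, and C/EBPε and GFI1 carry it towards the later stages. All of it takes place in the bone marrow, which surrounds the vessels from which BECs are taken, and endothelial cells are not known as a source of these transcripts.

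Female libraries held 47678806 to 58325745 counts and male libraries 49236654 to 50406097. Levels are given as CPM, counts scaled to library size with TMM normalization, and 3 counts, taken as the floor, were worth 0.0477 to 0.0639 CPM. The floor covers counting error only. Xist was between 152 and 364 CPM in the libraries labelled female and between 0.126 and 0.702 CPM in those labelled male, and the chromosome Y genes Ddx3y and Eif2s3y averaged 1.53 and 1.17 CPM in females against 58.1 and 55.1 CPM in males. The 12 endothelial markers were all measured, at a summed 388 to 513 CPM in females and 241 to 334 CPM in males. By comparison, 12 genes of the later, secondary and tertiary granules summed to 8622 to 10920 CPM in the female libraries and 14120 to 14860 CPM in the male ones, above the endothelial markers in every library. Emcn, which encodes the endomucin used for the purification, was at 8.68, 5.35 and 10.54 CPM in females and at 4.21, 3.08 and 6.72 CPM in males. Measured this way the libraries hold RNA of blood cells at higher levels than endothelial markers, and "BECs" below names the purification and not a checked cell type.

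Transcripts of all 10 genes were present in all 6 libraries. Together they held 0.0851%, 0.0876% and 0.133% of the counts in female replicates 1, 2 and 3, and 0.0786%, 0.107% and 0.116% in male replicates 1, 2 and 3. The share was lowest in male replicate 1 and highest in female replicate 3, and the female mean of 0.102% ± 0.0267 (SD, n = 3) and the male mean of 0.1003% ± 0.0193 (SD, n = 3) differed by less than either SD. In whole tissue or sorted populations such as these, fewer cells of a type and less RNA per cell cannot be told apart.

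Divided by the length of the main transcript, the levels spanned a wide range. Elane was highest at 154.6 ± 54.7 CPM per kb (SD, n = 6 libraries), then Prtn3 at 132.6 ± 42.1, Serpinb1a at 102.7 ± 12.6, Mpo at 83.0 ± 39.6 and Ctsg at 68.1 ± 24.2. The order went on with Cebpe at 49.2 ± 8.94 CPM per kb, Fcnb at 42.3 ± 9.56, Ms4a3 at 33.7 ± 10.7, Cebpa at 31.3 ± 5.12 and Gfi1 at 2.98 ± 0.570. Only Cebpe over Fcnb, Fcnb over Ms4a3 and Cebpa over Gfi1 held in 6 of 6 libraries. Each of the other neighbours in this order changed places in at least 1 library, and Ms4a3 stood above Cebpa in 3 of 6. With the length of all annotated exons in place of the main transcript, Ms4a3 fell below Cebpa, at 17.6 and 31.2 CPM per kb, and no other pair changed places.

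The start regions of Mpo, Elane, Prtn3, Ctsg and Ms4a3, which varied together within each sex, and of Fcnb, whose male libraries lay above the female ones, are printed here so that their sequences can be set beside the levels. Within sex Fcnb varied with the other genes printed too, with Pearson's r between 0.75 (Prtn3) and 0.93 (Mpo). Promoters of 250 bases before the RefSeq start site were found for 8 of the 10 genes (9 promoters, from the RefSeq sequences of GRCm38.p6, each matched without a mismatch to GRCm39). Cebpe and Serpinb1a had none. Each window is shown up to the first base of a GENCODE M39 exon of the same gene, and exons of other genes were not checked. The stretches are chr11:87684360-87684406 (plus strand) for Mpo, chr10:79721896-79722080 (plus) for Elane, chr10:79715251-79715447 (plus) for Prtn3, chr14:56340032-56340281 (minus) for Ctsg, chr19:11618216-11618465 (minus) for Ms4a3 and chr2:27974898-27975140 (minus) for Fcnb. The stretch of Prtn3 ends where the first exon of its shorter transcripts begins and lies in the first intron of a longer one. The other 5 lie just before the annotated start of their own gene. Each is written 5′ to 3′ on the strand of its gene, and capitals mark every match to the motifs described after them.
Mpo: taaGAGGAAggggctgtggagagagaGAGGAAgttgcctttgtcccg
Elane: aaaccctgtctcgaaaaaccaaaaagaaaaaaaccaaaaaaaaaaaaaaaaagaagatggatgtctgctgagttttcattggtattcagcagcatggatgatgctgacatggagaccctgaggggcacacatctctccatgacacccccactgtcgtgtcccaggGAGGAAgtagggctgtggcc
Prtn3: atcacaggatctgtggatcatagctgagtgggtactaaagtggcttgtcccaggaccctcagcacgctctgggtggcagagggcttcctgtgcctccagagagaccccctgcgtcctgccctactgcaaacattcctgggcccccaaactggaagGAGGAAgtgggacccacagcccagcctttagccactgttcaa
Ctsg: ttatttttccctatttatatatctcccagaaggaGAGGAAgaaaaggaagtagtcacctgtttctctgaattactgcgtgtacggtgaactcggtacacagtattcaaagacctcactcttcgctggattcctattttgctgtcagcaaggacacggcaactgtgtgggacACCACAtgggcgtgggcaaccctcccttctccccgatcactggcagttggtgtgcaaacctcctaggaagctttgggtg
Ms4a3: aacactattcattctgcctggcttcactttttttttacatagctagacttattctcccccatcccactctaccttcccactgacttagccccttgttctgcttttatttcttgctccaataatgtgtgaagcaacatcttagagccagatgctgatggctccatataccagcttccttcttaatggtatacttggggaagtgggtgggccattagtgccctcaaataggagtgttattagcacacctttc
Fcnb: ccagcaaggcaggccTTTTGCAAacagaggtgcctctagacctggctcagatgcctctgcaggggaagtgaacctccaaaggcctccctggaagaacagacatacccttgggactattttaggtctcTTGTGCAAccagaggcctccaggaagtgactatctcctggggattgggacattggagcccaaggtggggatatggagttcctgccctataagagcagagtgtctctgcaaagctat

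The motifs searched, on both strands and without overlap between them in these promoters, were GAGGAA for PU.1, TTGCNNAA for C/EBP factors, TGTGGT for RUNX1 with its partner CBFβ, and TAACNG for MYB. GAGGAA was found in 4 of the 9 promoters, those of Mpo, Elane, Prtn3 and Ctsg, and in 23.3% of all 32851 mouse promoters of the same length. Counted from the RefSeq start site, it lay at -247 to -242 and -224 to -219 in Mpo, at -85 to -80 in Elane, at -95 to -90 in Prtn3 and at -216 to -211 in Ctsg, always on the strand of the gene. TTGCNNAA was found at 2 places in Fcnb, both on the reverse strand, and in 1 of the 2 promoters of Gfi1 (9.56% of all promoters). TAACNG was found in Mpo and Elane (19.8% of all), in the part of both promoters that is not printed, and TGTGGT in Ctsg, as ACCACA (14% of all). The promoters of Ms4a3 and Cebpa and the other one of Gfi1 held none of the 4. A match shows only that these letters are present, and the factors themselves were not measured at these sites.

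Myeloperoxidase, the haem enzyme that makes hypochlorous acid from hydrogen peroxide,, spanned the widest range of the 10 genes. Mpo (chr11:87684407-87695239 in GRCm39, plus strand) was at 179.1, 207.4 and 440.2 CPM in female replicates 1, 2 and 3 and at 136.5, 172.8 and 234.0 CPM in male replicates 1, 2 and 3. Female replicate 3 stood far above the other 5 libraries, and the sexes overlapped. The log2 fold change of males over females was -0.61 (SE 0.34), with an adjusted p of 0.606 in edgeR (quasi-likelihood test, Benjamini-Hochberg). Without female replicate 3 the log2 fold change was -0.09.

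Elane encodes neutrophil elastase, Prtn3 proteinase 3 and Ctsg cathepsin G, the serine proteases of the primary granule. Elane (chr10:79722081-79724051, plus) was at 102.9, 119.6 and 207.9 CPM in females and at 96.45, 167.8 and 220.0 CPM in males. Prtn3 (chr10:79710310-79719008, plus), which ends 3072 bases before Elane begins, was at 98.68, 111.8 and 171.0 CPM in females and at 82.94, 185.4 and 165.5 CPM in males. Ctsg (chr14:56337338-56340031, minus) was at 46.29, 62.15 and 98.35 CPM in females and at 37.95, 72.22 and 92.28 CPM in males. In each of the 3 proteases male replicate 1 was the lowest library, female replicate 1 the next lowest, and the sexes overlapped. Their log2 fold changes of males over females, 0.17 (SE 0.33) for Elane, 0.19 (SE 0.31) for Prtn3 and -0.03 (SE 0.35) for Ctsg, were smaller than their SEs, with adjusted p-values of 0.904, 0.885 and 0.987 in edgeR (quasi-likelihood test, Benjamini-Hochberg). Single libraries set their signs. Elane fell to -0.12 without male replicate 3 and -0.01 without female replicate 1, Prtn3 to -0.03 without male replicate 2, and Ctsg was at 0.31 without female replicate 3 and at 0.25 without male replicate 1. Prtn3 shares bases with Plppr3 on the opposite strand (6.23 CPM), and since the sources do not say whether reads were counted by strand, reads of the pair cannot be told apart there.

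Ms4a3, a membrane protein of the MS4A family that marks granulocyte-monocyte progenitors, followed the proteases. Ms4a3 (chr19:11606860-11618215, minus) was at 24.18, 26.33 and 40.52 CPM in females and at 21.73, 41.04 and 47.1 CPM in males. Male replicate 1 was again the lowest library and the 2 groups overlapped. The log2 fold change was 0.27 (SE 0.29), with an adjusted p of 0.803 in edgeR (quasi-likelihood test, Benjamini-Hochberg).

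**Figure D1:**
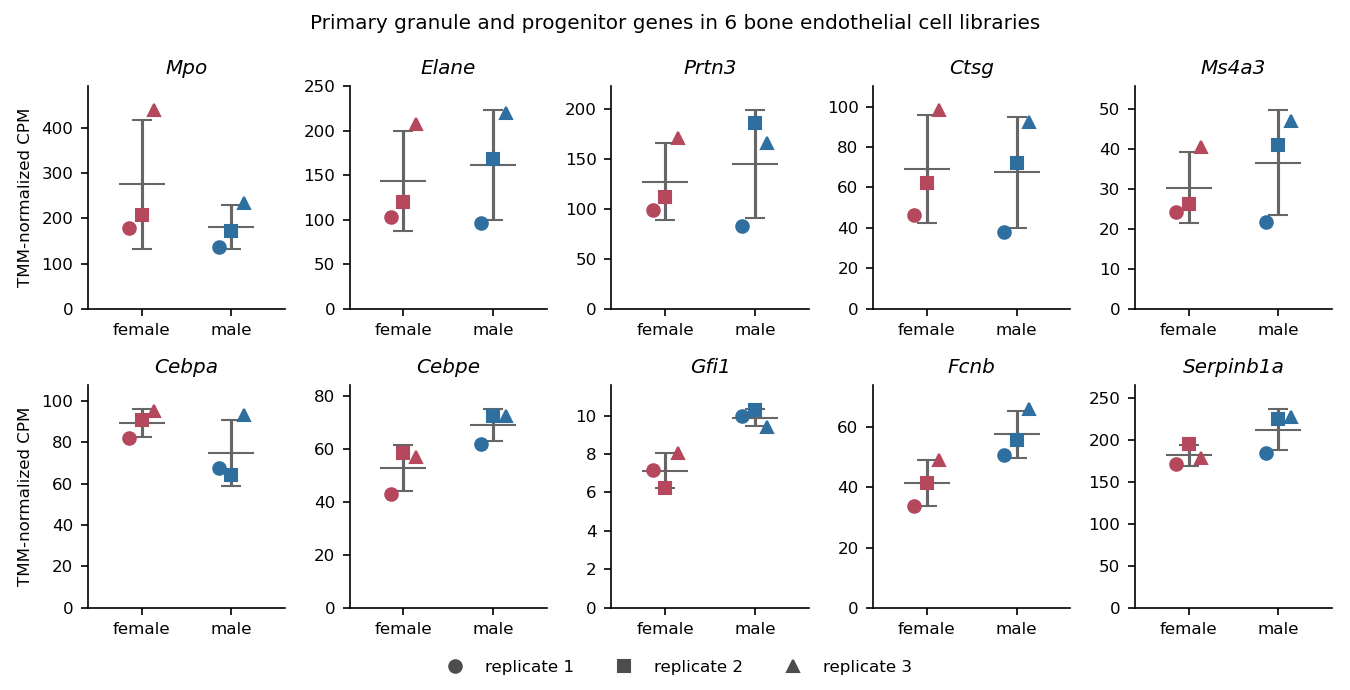
TMM-normalized CPM (linear axes from 0) of the 10 genes in the 3 female (red) and 3 male (blue) libraries, with markers for the replicate numbers and bars for the mean ± SD (n = 3). Male libraries lie above all female libraries for Cebpe, Gfi1 and Fcnb, and the sexes overlap for the other 7 genes, with female replicate 3 at 440.2 CPM for Mpo.

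The transcription factors differed from the proteases in how little they varied. Cebpa, the factor without which granulocyte-monocyte progenitors do not form (chr7:34818718-34821353, plus), was at 82.13, 90.68 and 95.16 CPM in females and at 67.38, 64.19 and 93.21 CPM in males. Male replicates 1 and 2 lay below all females and male replicate 3 lay among them, with a log2 fold change of -0.25 (SE 0.15).

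Cebpe, a factor needed for secondary granule genes and late granulocyte maturation (chr14:54947817-54949631, minus), was at 42.97, 58.7 and 57.11 CPM in females and at 62.05, 72.63 and 72.58 CPM in males. Gfi1, a zinc-finger repressor needed for neutrophil development (chr5:107864523-107873902, minus), was at 7.15, 6.24 and 8.03 CPM in females and at 9.96, 10.29 and 9.40 CPM in males. For both factors every male library was above every female library. The log2 fold changes were 0.38 (SE 0.14) for Cebpe and 0.47 (SE 0.18) for Gfi1, with unadjusted p-values of 0.0212 and 0.0243 and adjusted p-values of 0.401 and 0.415 in edgeR (quasi-likelihood test, Benjamini-Hochberg).

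Fcnb, which encodes ficolin-B, a lectin of innate immunity made by immature myeloid cells (chr2:27966389-27974897, minus), was at 33.83, 41.36 and 49.23 CPM in females and at 50.83, 55.85 and 65.96 CPM in males. Every male library was above every female library here too, and the log2 fold change of 0.47 (SE 0.16) had an unadjusted p of 0.0125 and an adjusted p of 0.351 in edgeR (quasi-likelihood test, Benjamini-Hochberg). Serpinb1a, the cytosolic inhibitor of elastase, proteinase 3 and cathepsin G (chr13:33026042-33035224, minus), was at 171.5, 195.2 and 178.6 CPM in females and at 184.2, 225.3 and 227.7 CPM in males. Only male replicate 1 fell among the females, and the log2 fold change was 0.22 (SE 0.13, adjusted p 0.606 in the same edgeR test). Serpinb1a shares bases with Wrnip1 on the opposite strand (27.0 CPM).

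None of the 10 genes passed an adjusted p of 0.05 in edgeR's quasi-likelihood test (0 of 10, beside 8 of the 19480 genes tested, 0.0411%) or in DESeq2's Wald test (0 of 10, beside 1.99% of genes). At an unadjusted p under 0.05 edgeR gave 3 of the 10 (Cebpe, Gfi1 and Fcnb, all higher in males), beside 9.79% of all genes and 5.03% in that direction, and DESeq2 gave 3, beside 8.06%. The same 3 genes were those whose male libraries all lay above the female ones (7.25% of all genes), and no gene of the 10 had all its male libraries below (7.29% of all genes). By sign, 7 of the 10 were higher in males and 3 lower, with a median log2 fold change of 0.21, beside 9699 higher and 9781 lower and a median of 0.00 (-0.00125) over all genes tested. Leaving out male replicate 1 raised the genes that did not overlap from 3 to 5, adding Ms4a3 and Serpinb1a above the females, and leaving out male replicate 3 also gave 5, adding Mpo and Cebpa below them. With 2 libraries against 3 a gap between the sexes is easier to meet, and among all genes the share without overlap rose from 14.5% to 27.6% without male replicate 1 and to 32.2% without male replicate 3.

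The primary granule genes and Ms4a3 were also those that varied most between libraries of one sex. The within-sex SD on the log2 scale was 0.56 for Mpo, 0.57 for Elane, 0.53 for Prtn3, 0.60 for Ctsg and 0.50 for Ms4a3, higher than in 96.8% to 98.6% of the genes with a mean of 5 CPM or more, whose median was 0.18. It was 0.22 for Cebpa, 0.20 for Cebpe, 0.13 for Gfi1, 0.23 for Fcnb and 0.14 for Serpinb1a, above between 26.6% and 67.9% of those genes. From the lowest library to the highest, Mpo spanned 3.23-fold and Ctsg 2.59-fold, and Serpinb1a spanned 1.33-fold.

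The spread of the proteases was shared. Over the 6 libraries, Pearson's r of log2 CPM among Elane, Prtn3, Ctsg and Ms4a3 was between 0.915 and 0.978 in 6 pairs, and between 0.926 and 0.991 after each sex's mean was subtracted. Mpo joined them less closely across the sexes, which put the lowest r among Mpo, Elane, Prtn3 and Ctsg at 0.593, and 0.785 within sex. Cebpe, Gfi1 and Fcnb had r between 0.665 and 0.928 with one another across the sexes but between -0.13 and 0.82 within sex. They were grouped because their male libraries lay above the female ones, which by itself raises r across the sexes. Serpinb1a, outside this group, had r of 0.88 with Cebpe, 0.79 with Fcnb and 0.51 with Gfi1 across the sexes. Mpo had r between -0.26 and 0.12 with Cebpe, Gfi1 and Fcnb across the sexes but between 0.50 and 0.93 within sex. All these values describe the same 6 libraries, with the same library sizes and purification, and are given without a test.

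**Figure D2:**
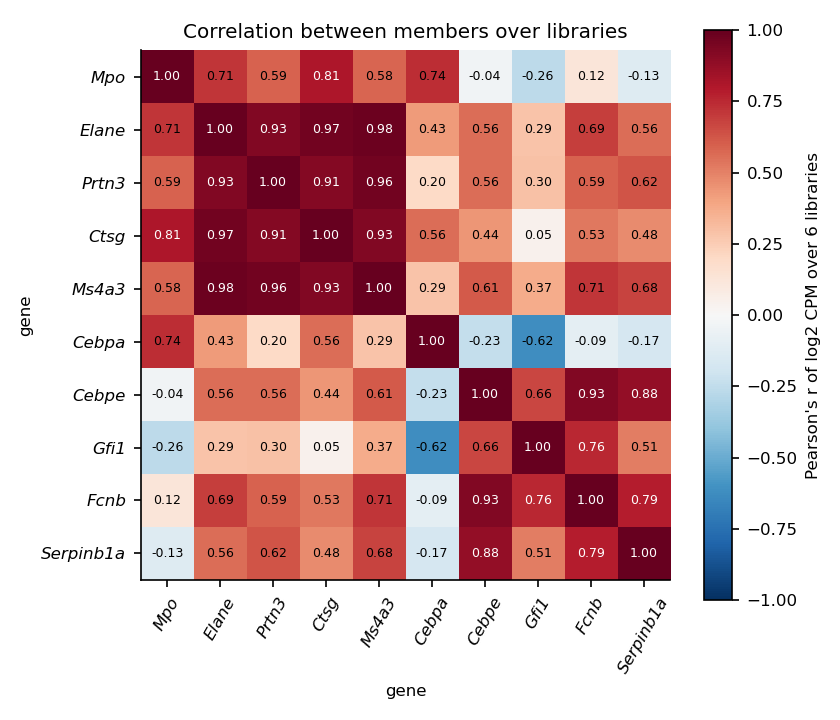
Pearson's r of log2 CPM between each pair of the 10 genes over the 6 libraries, as colours with the value in each cell. Elane, Prtn3, Ctsg and Ms4a3 form a block with r of 0.915 or more, and Cebpa and Gfi1 have the lowest value, -0.62.

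The genes whose levels ran most like the mean log2 CPM of Mpo, Elane, Prtn3 and Ctsg, among 10469 protein-coding genes with a mean of at least 5 CPM, were Rps18-ps6 (r = 0.996), Crbn (0.986), Pgm3 (0.984), Cops2 (0.980) and Cst7 (0.976), each over 6 libraries. Rps18-ps6 is close in sequence to the ribosomal protein gene Rps18 and its counts are uncertain. Crbn encodes a substrate receptor of a ubiquitin ligase, Pgm3 an enzyme of sugar nucleotide synthesis, Cops2 a subunit of the COP9 signalosome and Cst7 the protease inhibitor cystatin F. Cst7 was at 4.61, 5.98 and 7.96 CPM in females and at 4.38, 6.21 and 6.77 CPM in males, the same order of libraries as Ctsg. Of the 10469 genes, 115 (1.10%) had r above 0.9.

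The levels were next set against the later granule waves of the same lineage. Of 12 secondary and tertiary granule genes, 12 were higher in males, 8 at an unadjusted p under 0.05 in edgeR and 10 without overlap of the sexes, with a median log2 fold change of 0.46. Over all genes tested, 5.03% were higher in males at that p and 7.25% had every male library above the female ones. None of the 12 passed the adjusted threshold in edgeR, and DESeq2 gave 5, beside 1.99% of all genes. Ngp, a neutrophilic granule protein, had a log2 fold change of 0.45 (SE 0.16), Camp, the cathelicidin, 0.87 (SE 0.17), and Ltf, lactoferrin, 0.32 (SE 0.17). Of 8 genes of mature neutrophils, 8 were higher in males, 7 at an unadjusted p under 0.05 and 7 without overlap, with a median of 0.99, and 0 passed the adjusted threshold in edgeR and 7 in DESeq2. S100a8 and S100a9, the subunits of calprotectin, had log2 fold changes of 1.06 (SE 0.21) and 0.97 (SE 0.20), and Retnlg, a resistin-like protein, 1.01 (SE 0.16). The median of the 10 primary granule and progenitor genes, 0.21, lay below both, and these differences between lists were not tested. That median mixes unlike values. Mpo, Elane, Prtn3 and Ctsg were at -0.61, 0.17, 0.19 and -0.03, whereas Cebpe, Gfi1 and Fcnb, at 0.38, 0.47 and 0.47, lay near the secondary and tertiary granule median of 0.46.

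**Figure D3:**
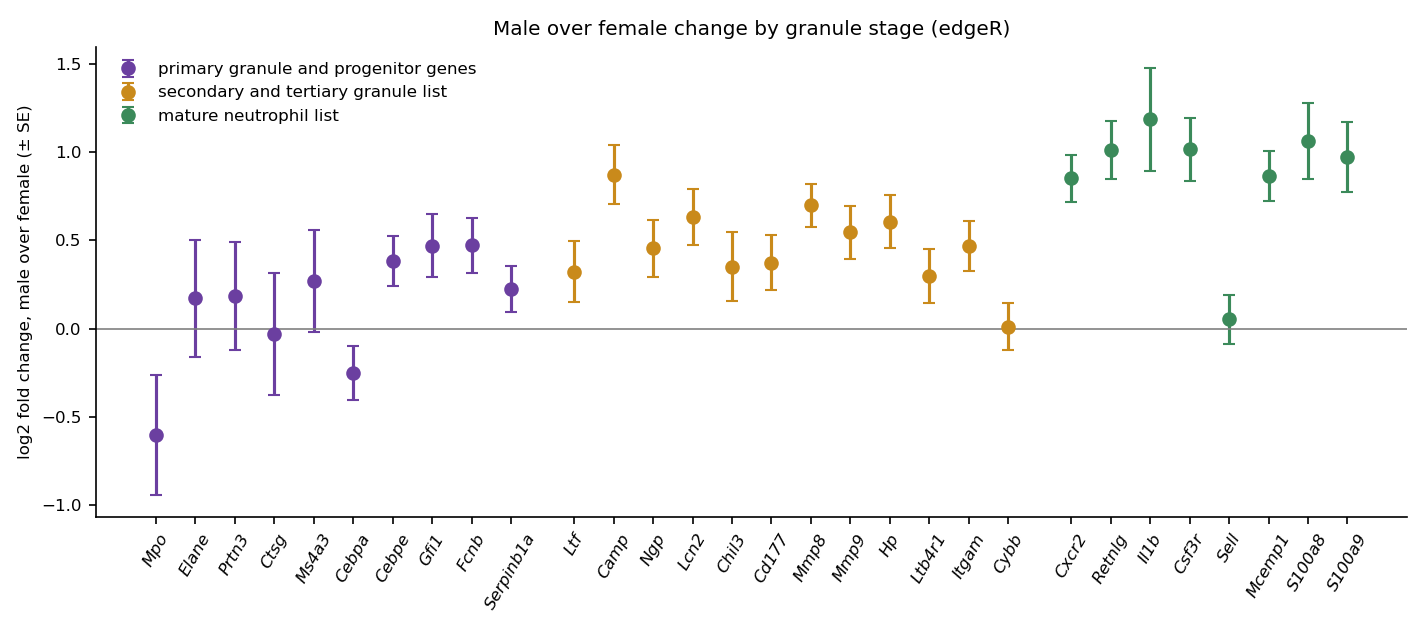
Log2 fold change of males over females (edgeR, points with bars of ± SE) for the 10 primary granule and progenitor genes, the 12 secondary and tertiary granule genes and the 8 mature neutrophil genes. Medians are 0.21, 0.46 and 0.99, and Mpo is the lowest point at -0.61.

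Set as a ratio, Mpo, Elane, Prtn3 and Ctsg summed to 6.47, 5.89 and 11 CPM per 100 CPM of Ltf, Camp, Ngp, Lcn2 and Chil3 in female replicates 1, 2 and 3. The ratio was 3.22, 5.15 and 6.28 in male replicates 1, 2 and 3. Female replicate 3 was the highest and male replicate 1 the lowest, and only male replicate 3 was above a female library. On the log2 scale the female mean was -3.74 ± 0.49 and the male mean -4.41 ± 0.49 (SD, n = 3 each), a difference of -0.67 with overlap of the sexes, which was -0.39 without female replicate 3 and -0.40 without male replicate 1. The numerators alone, 426.9 to 917.4 CPM in females and 353.8 to 711.8 CPM in males, overlapped widely, while the denominators, 6601 to 8514 CPM in females and 10970 to 11610 CPM in males, did not. With S100a8 and S100a9 as the denominator, Mpo, Elane, Prtn3 and Ctsg stood at 3.795, 3.73 and 7.27 CPM per 100 CPM in females. In males they stood at 1.83, 1.99 and 2.76, a log2 difference of -1.12 without overlap. That denominator did not overlap either (11250 to 13450 CPM in females, 19350 to 30020 CPM in males), and its male mean was 2.01 times its female mean. The share of all genes without overlap over this denominator was not computed, so the lower ratio is not read as a result about these genes. These ratios are descriptions and were not tested.

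Taken one by one over the same 5 secondary granule genes, the log2 ratio of males minus females was -1.06 for Mpo, -0.81 for Cebpa, -0.32 for Serpinb1a and -0.15 for Cebpe, each without overlap of the sexes. These 4 of 10 stand beside 53.2% of all genes tested, whose male libraries likewise lay below the female ones once divided by this denominator, so the lower ratios are not a result about these genes. The ratio of Fcnb, by contrast, differed by -0.06 and that of Gfi1 by -0.07, with overlap. Elane, Prtn3, Ctsg and Ms4a3 had differences of -0.38, -0.40, -0.60 and -0.31, all with overlap.

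**Figure D4:**
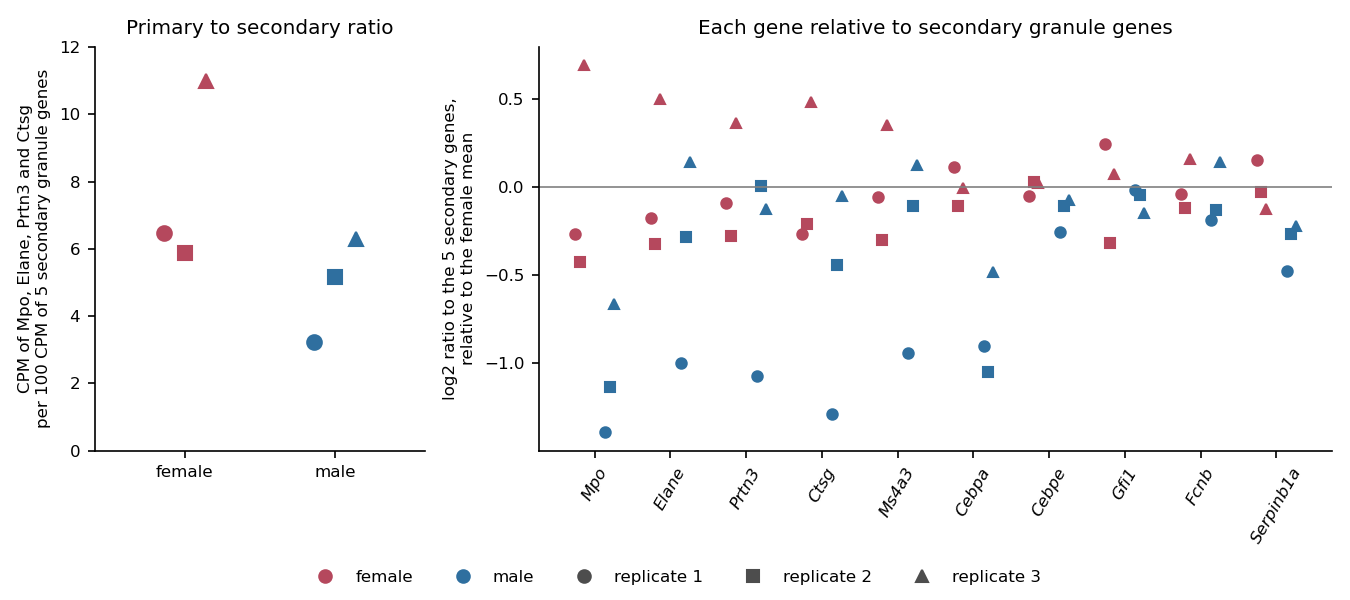
Summed CPM of Mpo, Elane, Prtn3 and Ctsg per 100 CPM of Ltf, Camp, Ngp, Lcn2 and Chil3 in each library (left, linear axis from 0) and the log2 ratio of each of the 10 genes to the sum of those 5, as the distance of each library from the female mean (right), with colours for sex and markers for replicate numbers. On the left, female replicate 3 is highest at 11 and male replicate 1 lowest at 3.22, and on the right all male libraries lie below all female libraries for Mpo, Cebpa, Cebpe and Serpinb1a.

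Genes that process or pack the primary granule proteins showed no common direction. Of 10 measured, 4 were higher and 6 lower in males, 1 in each direction at an unadjusted p under 0.05, 0 at the adjusted threshold in edgeR and 1 in DESeq2. Lyz2, lysozyme, had a log2 fold change of 0.57 (SE 0.18), Srgn, the granule proteoglycan serglycin, 0.26 (SE 0.14), and Man2b1, a lysosomal mannosidase, -0.28 (SE 0.14). Named after their values were seen, Ctsc, the protease that activates elastase, proteinase 3 and cathepsin G, was at 299.8 ± 14.5 CPM in females and 243.6 ± 27.8 CPM in males (SD, n = 3 each) with males below females. Prss57, a further serine protease of this granule, was at 8.33, 9.80 and 13.8 CPM in females and at 7.65, 14.3 and 14.8 CPM in males, and had r = 0.929 with the mean of the 4 primary granule genes.

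Genes mutated in inherited neutropenia, whose products act in protein targeting, vesicle traffic, glucose-6-phosphate metabolism or mitochondria, were lower in males in 7 of 8, with a median log2 fold change of -0.08, 2 at an unadjusted p under 0.05, and 0 at the adjusted threshold in edgeR or DESeq2. The most abundant, Srp54a, Ap3b1 and Vps13b, had log2 fold changes of -0.01, -0.05 and -0.02, none larger than its SE. Of 6 protease inhibitors 2 were higher and 4 lower in males, 1 in each direction at an unadjusted p under 0.05, with 0 at the adjusted threshold in edgeR and 1 in DESeq2. Serpinb6a, a relative of Serpinb1a, had a log2 fold change of -0.01 (SE 0.24) and Serpinb9, an inhibitor of granzyme B, -0.54 (SE 0.20). Slpi, a secreted inhibitor of elastase and cathepsin G, was at 111.3 ± 14.9 CPM in females and 190.1 ± 14.8 CPM in males (SD, n = 3 each), with males above females and an adjusted p of 0.0701 in edgeR (quasi-likelihood test, Benjamini-Hochberg).

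Among 12 other transcription factors of myeloid progenitors, 7 were higher and 5 lower in males with a median of 0.08, 3 being higher at an unadjusted p under 0.05, 0 at the adjusted threshold in edgeR and 1 in DESeq2. Spi1, which encodes PU.1, had a log2 fold change of 0.36 (SE 0.14), Irf8, a factor of the monocyte branch, -0.12 (SE 0.13), and Cbfb, the partner of RUNX1, 0.00 (SE 0.11). Cebpd, a late C/EBP factor named after its values were seen, was at 46.6 ± 8.48 CPM in females and 80.9 ± 12.96 CPM in males (SD, n = 3 each), without overlap. Of 9 surface and growth factor receptors 6 were higher and 3 lower, 3 in each direction at an unadjusted p under 0.05, with 0 at the adjusted threshold in edgeR and 3 in DESeq2. The receptor of granulocyte colony-stimulating factor, Csf3r, had a log2 fold change of 1.02 (SE 0.18), that of macrophage colony-stimulating factor, Csf1r, -0.52 (SE 0.13), and the lectin receptor Clec12a 0.02 (SE 0.15). Of 8 proliferation genes 7 were higher in males with a median of 0.10, 1 at an unadjusted p under 0.05 and 0 at the adjusted threshold in edgeR or DESeq2. Mki67 was at 139.0 ± 39.9 CPM in females and 145.8 ± 47.4 CPM in males (SD, n = 3 each), and Top2a and Rrm2 had log2 fold changes of 0.07 and 0.11, below their SEs.

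No marker of another cell type passed the adjusted threshold in edgeR, and for some of the lists the summed level did not overlap between the sexes. At an unadjusted p under 0.05 edgeR gave 9 of 12 endothelial, 6 of 8 monocyte and macrophage, 3 of 6 erythroid, 1 of 5 B cell, 2 of 6 eosinophil, basophil and mast cell and 2 of 6 stromal markers, beside 9.79% of all genes. DESeq2's adjusted test gave 4, 2, 0, 0, 0 and 0, beside 1.99% of all genes. The edgeR counts mix directions for monocyte and macrophage markers (5 lower and 1 higher in males) and for stromal markers (1 lower and 1 higher). Endothelial markers were lower in males in 12 of 12, and their summed level did not overlap. Monocyte and macrophage markers were lower in 6 of 8 and summed to 2540 to 2750 CPM in the female libraries and 1875 to 2306 CPM in the male ones. Mature neutrophil genes summed to 12640 to 15130 CPM in females, against 21630 to 32930 CPM in males, and erythroid markers, 6 of 6 higher in males, to 6642 to 9505 CPM against 9992 to 14660 CPM. Sums of B cell markers (2673 to 3088 CPM in females, 2668 to 3084 CPM in males, 5 of 6 genes matched), of eosinophil, basophil and mast cell markers (137 to 191 and 123 to 150 CPM) and of stromal markers (1366 to 2834 and 1178 to 2281 CPM) overlapped. No marker in these lists was at 0 in any library. The 10 primary granule and progenitor genes summed to 789 to 1346 CPM in females, against 750 to 1228 CPM in males, and overlapped. The part of these cell types in the differences of Cebpe, Gfi1 and Fcnb was not tested.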

How the data were processed

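RNA from purified BECs was measured in 6 libraries, 3 per sex, grouped by the labels. The authors deposited whole-number read counts per gene, not normalized and not pooled. The paper names STAR, GRCm39 and featureCounts, whereas the submitters' processing notes name TopHat2 2.0.11, featureCounts, mm9 and NCBIM37, and the labels and the paper also differ on read length (40 and 100 nucleotides). The annotation release and the strand setting are not given in the sources used here, and both affect counts of overlapping genes. GENCODE M39 (GRCm39) gave symbols and positions for 31073 of 37991 identifiers (96.2% of counts), and the 6918 others stayed in the test.

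Males were compared with females in edgeR 4.0.16 (R 4.3.3) by robust quasi-likelihood fits after TMM scaling and filterByExpr by sex, and p-values were adjusted by Benjamini-Hochberg over 19480 genes. CPM are TMM-normalized, and an SE is the size of the log2 fold change divided by the root of its F statistic. Correlations used log2(CPM + 0.5). The fits were tested on simulated counts. An exact permutation test of 3 against 3 cannot go below p = 0.1, so none was used. No 2 libraries agreed within sampling noise (chi-square per degree of freedom of at least 33.6 over 15 pairs).

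The genes and lists were chosen with earlier results of these data known. The text names every one of the 10 genes, up to 3 genes per list with the highest mean CPM and any with an adjusted p under 0.05, the 5 genes of most similar pattern and, for the labels, Xist, Ddx3y and Eif2s3y. Ctsc, Prss57, Cebpd and Cfd fall outside this rule and were named after their values were seen, as were Emcn, named for the purification, and Plppr3 and Wrnip1, which overlap 2 of the 10 genes. Alternatives were DESeq2 1.42.0 (size factors and Wald test), total counts alone, 2 other count filters, the replicate block, fits without robust estimation, the mean of the secondary and tertiary granule genes as a covariate, other ratio denominators and scales, and each library left out.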

Additional observations from a re-analysis of the deposited data

How the results depend on the processing

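Of the 10 genes, 0 passed the adjusted threshold under every alternative except the replicate number as a block, which gave 1, Fcnb (log2 fold change 0.48, adjusted p 0.0347 in edgeR), and raised all genes called from 8 to 428 (2.2%). At an unadjusted p under 0.05 the block gave 5 of the 10, 3 higher and 2 lower in males, beside 14.1% of all genes. Same-numbered libraries deviated together with correlations of 0.248, 0.0613 and 0.361, and male replicate 2 correlated best with female replicate 1 (0.162), so same-numbered libraries were not taken as pairs. All genes called came to 14 with total counts alone, 98 without a filter, 354 by DESeq2, 4 with the covariate, and between 5 (without female replicate 2) and 96 (without male replicate 3) with a library left out. With the covariate, a score that itself differed between the sexes, Mpo was at -1.85, Ctsg at -1.25, Cebpa at -0.48, Serpinb1a at 0.03, Gfi1 at 0.42, Elane at -0.90, Prtn3 at -0.75, Ms4a3 at -0.55, Cebpe at -0.21 and Fcnb at -0.13. Elane, Prtn3, Ms4a3, Cebpe and Fcnb thereby turned from higher to lower in males. Leave-one-out log2 fold changes ran from -0.12 to 0.54 for Elane, from -0.03 (-0.034) to 0.46 for Prtn3 and from -0.33 to 0.31 for Ctsg. The other 7 genes kept their sign, with Mpo from -0.84 to -0.09, Ms4a3 from 0.05 (without male replicate 3) to 0.54 (without male replicate 1) and Cebpa from -0.44 (without male replicate 3) to -0.15 (without male replicate 2). Genes without overlap numbered 3 to 5 of the 10 with a library left out, beside 18.1% to 32.2% of all genes in the same settings. The differences in ratio and in share moved by less than the SD under each alternative, but the share difference of -0.0014 percentage points turned to 0.014 without female replicate 3 and 0.0095 without male replicate 1. The cause was not tested. Gfi1, the lowest of the 10, had 330 to 525 counts per library.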

Other observations

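Of 7 tested genes that lie next to the early granule genes or are related to them by sequence, 3 were higher and 4 lower in males, 1 and 3 of them at an unadjusted p under 0.05, with 0 at the adjusted threshold in edgeR and 1 in DESeq2. Fcna, which encodes ficolin-A, a relative of Fcnb made by macrophages, was at 774.6 ± 22.2 CPM in females and 537.2 ± 141.4 CPM in males (SD, n = 3 each), with males below females, the opposite direction to Fcnb. Mcpt8, a basophil protease gene on the chromosome of Ctsg, was at 27.0 ± 1.96 and 31.6 ± 2.44 CPM, and Ms4a1, the B cell relative of Ms4a3, at 511.0 ± 25.9 and 489.7 ± 48.3 CPM. Cfd, which encodes complement factor D, begins 2616 bases after Elane ends and was named after its values were seen. It was at 6.17, 5.90 and 15.8 CPM in females and at 0.607, 1.42 and 0.506 CPM in males, while Elane beside it overlapped between the sexes. The log2 fold change of Cfd was -3.46 (SE 0.51) with an adjusted p of 0.0547 in edgeR (quasi-likelihood test, Benjamini-Hochberg). Its adjusted p was 0.0397 in edgeR with the replicate block and 7.3e-13 in DESeq2's Wald test, where it was the 1 gene of this list that passed.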
